A study of Homo sapiens with 4 samples.

Results

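The genes described here lie on the distal long arm of human chromosome 4 (4q32 to the end of the arm) and were listed as a block of neighbouring genes with lowered RNA in cells without HELZ, although 4 of them had no counts and not every other one was lower. The list holds 47 of the 27011 genes in the count table. It was selected on the comparison of *Helz*-null with WT cells, so all differences of listed genes between these groups are given as descriptions and carry no test. The list had no numerical threshold, and its outer limits are described through the tested genes on either side of its centromere-side edge.

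RNA-Seq was performed on total RNA of HEK293T cells, a human embryonic kidney line that expresses the SV40 large T antigen and has a hypotriploid, rearranged karyotype. The WT group comprised 2 libraries and the *Helz*-null group comprised 2 libraries, described in the study as biological replicates. *Helz*-null cells were HEK293T cells edited with Cas9 and a guide RNA to *helz*, which left a frameshifting deletion, and neither group received a treatment. Both *Helz*-null libraries came from the same edited line, so the loss of HELZ and any other difference between the lines cannot be told apart. The library totals ranged from 41745401 to 70464140 counts. *HELZ* itself, on chromosome 17, had normalized counts relative to library size (CPM) of 99.8 and 103.9 in WT cells and 36.98 and 37.9 in *Helz*-null cells (log2FC -1.44, SE 0.042, edgeR FDR 2.13e-27). The HEK293T neurofilament and mesenchymal markers *NEFL*, *NEFM*, *INA*, *VIM* and *CDH2* were detected in every library, and the summed CPM of the list of 8 markers ranged from 1591 to 1597 in WT and from 1652 to 1670 in *Helz*-null cells. Within it, *NEFM* was higher (log2FC 0.89), whereas *INA* (log2FC -1.05) and *VIM* (-0.14), the most abundant marker, were lower in *Helz*-null cells. The 9 markers of other cell types summed to between 15.2 and 15.8 CPM in WT and between 15.3 and 17.6 CPM in *Helz*-null cells, nearly all of it *COL1A1*, and *HBB* was at 0 in all 4 libraries.

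HELZ is a putative RNA helicase with a zinc finger that binds the CCR4–NOT deadenylase complex, which shortens mRNA tails and represses translation. The genes of distal 4q do not form a pathway. They are neighbours on a chromosome arm that encode, among others, a chromatin protein (*HMGB2*), subunits of a histone deacetylase complex (*SAP30* and *ING2*), a telomerase and small nucleolar RNP assembly factor (*NAF1*), a trafficking complex subunit (*TRAPPC11*), mitochondrial and lipid enzymes (*ETFDH*, *ACSL1* and *CYP4V2*) and receptors of the nervous system (*GRIA2* and *GLRB*). Some neighbours are transcribed away from each other from a shared stretch of DNA, an arrangement called head-to-head or bidirectional.

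Among pairs with fewer than 1000 bases between the annotated starts, 3 consist of listed genes only. Their start regions are shown because both genes of a pair share a stretch of promoter DNA, so their shifts can be set side by side. Each is read from GRCh37 on the plus strand, 5′ to 3′, and begins and ends 30 bases inside the genes. Capitals mark TGACG or its complement CGTCA, the core of the cAMP response element, and these can overlap, as in TGACGTCA.
*NEK1* and *CLCN3* (chr4:170533754-170533813): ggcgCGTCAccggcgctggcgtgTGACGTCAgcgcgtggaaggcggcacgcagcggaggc
*FBXO8* and *CEP44* (chr4:175204789-175204910): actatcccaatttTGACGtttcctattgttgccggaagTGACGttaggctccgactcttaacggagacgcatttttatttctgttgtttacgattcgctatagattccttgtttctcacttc
*RWDD4* and *TRAPPC11* (chr4:184580327-184580449): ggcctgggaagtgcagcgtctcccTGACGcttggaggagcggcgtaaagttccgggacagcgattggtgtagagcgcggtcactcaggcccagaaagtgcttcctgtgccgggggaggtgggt
The starts of *NEK1* and *CLCN3* are adjacent, with 0 bases between them, whereas 62 bases separate *FBXO8* from *CEP44* and 63 bases separate *RWDD4* from *TRAPPC11*. GC content was 76.7%, 41.0% and 64.2%, respectively. The stretches held 3, 2 and 1 matches to TGACG on either strand. These letters were present in 60% of the 30 RefSeq promoters of tested listed genes and in 35.7% of 8912 promoters of all tested genes, where a promoter runs from 250 bases before to 50 bases after the start. Head-to-head neighbours share part of their promoter sequence and so are not independent entries in that share. A match describes letters in the window, not a bound site.

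Of the 47 genes, 34 were among the 10978 tested, which are the genes the authors retained by their FPKM filter, and 13 were not. All 34 tested genes had a negative log2FC, against 50.25% of all tested genes. In all 34 both *Helz*-null libraries lay below both WT libraries, a pattern found in 35.7% of all tested genes. At an FDR under 0.005, 28 were called lower and 0 higher, against 15.5% and 13.9% of all tested genes called lower and higher. The list was chosen on this contrast, so the counts describe it and nothing more is read from them. Mean levels per kilobase of *MFAP3L* (2.53 CPM in WT cells and 1.54 in *Helz*-null cells), *IRF2* (2.50 and 1.86) and *GLRB* (2.19 and 1.82) were above 2 in WT cells only, so these genes may have passed the filter, an FPKM above 2, only through the WT libraries. The median log2FC of the 34 genes was -0.49, which corresponds to 71.4% of the WT level, with quartiles of -0.58 and -0.30. The median over all 10978 genes was -0.0009. SEs of single genes ranged from 0.030 to 0.14, with a median of 0.060, whereas the SD across the 34 genes was 0.20. In bulk RNA, fewer cells that express a gene and less of its RNA per cell cannot be told apart.

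**Figure D1:**
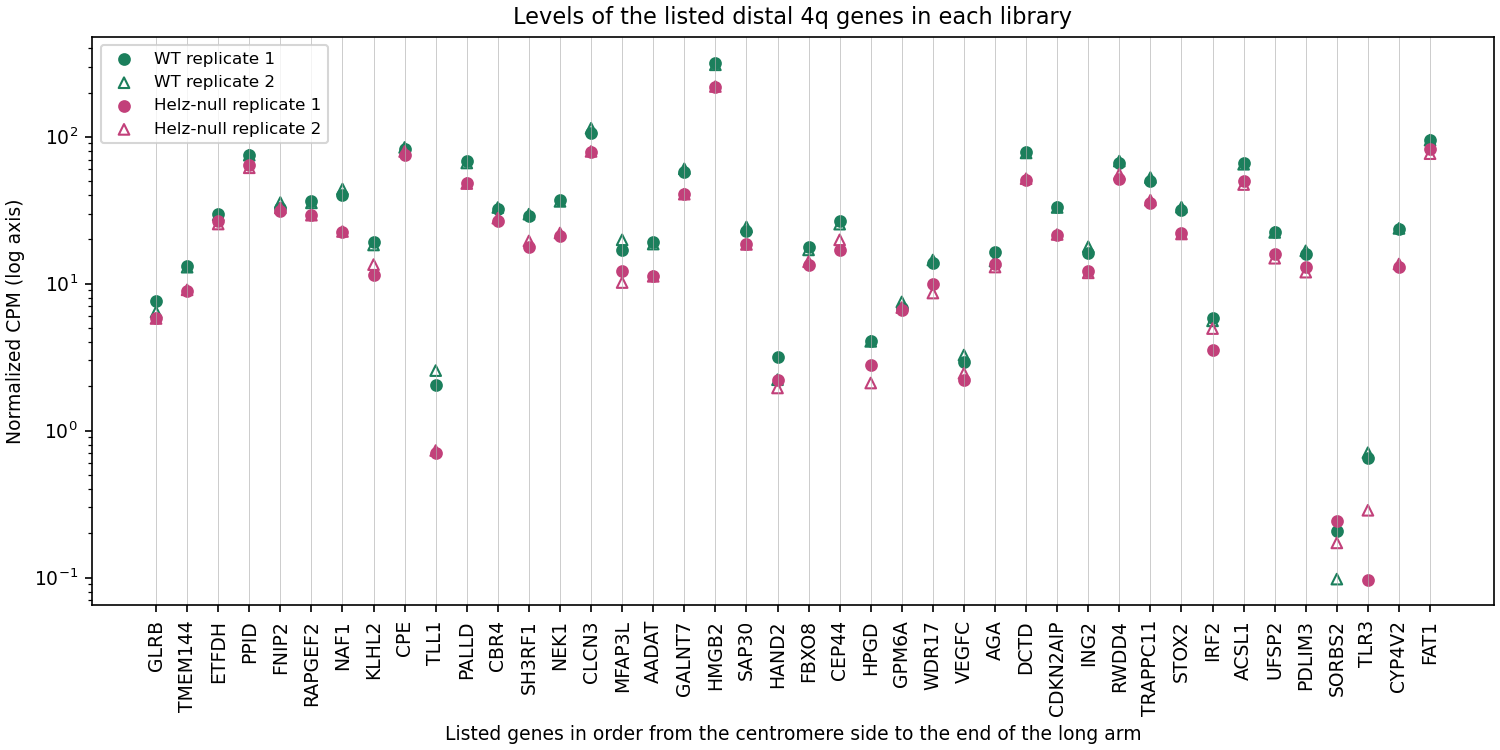
Normalized CPM on a log axis for the 42 listed genes with counts in all 4 libraries, in chromosomal order, with 1 symbol per library (WT green, *Helz*-null pink). For each of the 34 tested genes both *Helz*-null symbols lie below both WT symbols, while the groups overlap for *SORBS2* and *GPM6A*.

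The list was selected on these 4 libraries, so the ratios between single libraries, which also share libraries, describe only the size of the difference. The log2 ratio of *Helz*-null to WT over the 34 tested genes had a median of -0.48 and -0.44 against WT replicate 1, and of -0.52 and -0.47 against WT replicate 2, for *Helz*-null replicates 1 and 2. Within groups the same genes had a median ratio of -0.01 between the WT libraries (range -0.25 to 0.22) and of 0.01 between the *Helz*-null libraries (range -0.27 to 0.48). The summed CPM of the listed genes was 1646 and 1656 in WT and 1209 and 1216 in *Helz*-null cells. Without *HMGB2*, the most abundant of them, the tested genes summed to 1293 and 1312 CPM in WT cells and to 967 and 973 in *Helz*-null cells.

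Chromatin and transcription factors made up 8 of the listed genes, of which 6 were tested and 5 called lower (median log2FC -0.50). *HMGB2*, a DNA-bending high-mobility-group protein, had the highest level of all, with 319.6 and 308.8 CPM in WT cells and 217.7 and 219.7 in *Helz*-null cells (log2FC -0.52, SE 0.030). Per kilobase of gene width its mean level was 190.1 CPM in WT cells and 132.3 in *Helz*-null cells, the highest of the list on that scale too. *SAP30*, a SIN3-HDAC subunit, had 22.7 and 24.3 CPM in WT cells and 18.6 and 18.5 in *Helz*-null cells (log2FC -0.34). Its complex partner *ING2*, which reads methylated histone H3, had a log2FC of -0.49, and *CDKN2AIP*, a regulator of the p53 pathway, and *STOX2*, a winged-helix protein, had log2FC of -0.62 and -0.56. *IRF2*, a repressor of interferon-responsive genes, had 5.83 and 5.59 CPM in WT cells and 3.56 and 4.95 in *Helz*-null cells and was not called (log2FC -0.39, SE 0.14). Its *Helz*-null libraries were the more divergent, and its log2FC was -0.69 without *Helz*-null replicate 2, where it was called, and -0.21 without *Helz*-null replicate 1. The pluripotency-associated factor *ZFP42* and the cardiac and neural crest factor *HAND2* were not tested.

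Factors of RNA and nucleotide metabolism included the most lowered tested gene. *NAF1*, which assembles H/ACA small nucleolar RNPs and telomerase, had 40.3 and 44.03 CPM in WT cells and 22.5 and 22.7 in *Helz*-null cells (log2FC -0.90, SE 0.058), 53.8% of the WT level. *DCTD*, the deoxycytidylate deaminase that supplies dUMP for thymidylate synthesis, had 78.9 and 77.6 CPM in WT cells and 50.8 and 51.8 in *Helz*-null cells (log2FC -0.61). The groups did not overlap for either gene. The third member of the group, *DDX60L*, had no counts.

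Of the 7 mitochondrial and lipid enzymes 5 were tested, and they covered nearly the whole span of the shift. *CYP4V2*, a fatty acid omega-hydroxylase, had 23.6 and 23.8 CPM in WT cells and 13.0 and 13.6 in *Helz*-null cells (log2FC -0.83, SE 0.072). *AADAT*, an aminotransferase of the kynurenine pathway, had 19.3 and 18.6 CPM in WT cells and 11.3 and 11.2 in *Helz*-null cells (log2FC -0.76, SE 0.079). Both lay well apart between groups. *ACSL1*, which activates long-chain fatty acids, was near the middle of the list (log2FC -0.44). *CBR4*, a mitochondrial reductase of fatty acid synthesis, had 32.4 and 33.0 CPM in WT cells and 26.8 and 27.9 in *Helz*-null cells (log2FC -0.25, SE 0.057), and it was not called without *Helz*-null replicate 1 (log2FC -0.23). *ETFDH*, which passes electrons from flavoprotein dehydrogenases to ubiquinone, had 29.6 and 29.3 CPM in WT cells and 26.8 and 25.5 in *Helz*-null cells and was not called (log2FC -0.18, SE 0.060). *ETFDH* shares 1427 exonic bases with *PPID* and 259 with *C4orf46* on the opposite strand, and *CBR4* shares 108 with *PALLD*. The use of strand in counting is not given in the sources used here, so reads from these stretches cannot be assigned to a gene.

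Cytoskeletal, adhesion and cilium genes numbered 7, and all 6 that were tested were called lower (median log2FC -0.49). *NEK1*, a kinase of cilia and DNA repair, had 37.4 and 36.3 CPM in WT cells and 21.3 and 22.1 in *Helz*-null cells (log2FC -0.76, SE 0.059). *MFAP3L*, a microfibril-associated membrane protein, had 17.0 and 19.9 CPM in WT cells and 12.3 and 10.2 in *Helz*-null cells (log2FC -0.73, SE 0.089). *FAT1*, a giant protocadherin, had 95.4 and 94.8 CPM in WT cells and 82.7 and 76.7 in *Helz*-null cells (log2FC -0.26, SE 0.039). The smaller shift of *FAT1* was still outside the spread of either group. The actin-binding *PALLD*, the centrosomal *CEP44* and the Z-disc protein gene *PDLIM3* had log2FC of -0.48, -0.49 and -0.39, and *PDLIM3* was not called without *Helz*-null replicate 2 (log2FC -0.33).

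Among 8 genes of protein folding, glycosylation and ubiquitin-like pathways, all tested, 7 were called lower (median log2FC -0.44). *PPID*, a cyclophilin that works with HSP90, had 75.4 and 74.9 CPM in WT cells and 64.2 and 61.5 in *Helz*-null cells (log2FC -0.26, SE 0.041). *AGA*, a lysosomal amidase of glycoprotein breakdown, had 16.4 and 14.3 CPM in WT cells and 13.6 and 13.0 in *Helz*-null cells and was not called (log2FC -0.22, SE 0.083). For *AGA* the gap between groups was smaller than the gap between the WT libraries. The E3 ligase gene *SH3RF1* (log2FC -0.64), the cullin adaptor gene *KLHL2* (-0.59), the UFM1 protease gene *UFSP2* (-0.54), the mucin-type glycosyltransferase gene *GALNT7* (-0.54), the F-box gene *FBXO8* (-0.34) and the RWD-domain gene *RWDD4* (-0.31) made up the rest. *FBXO8* was not called without WT replicate 1 (-0.30) or without *Helz*-null replicate 1 (-0.31). *UFSP2* shares 909 exonic bases with the antisense neighbour *ANKRD37*.

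All 4 genes of trafficking and ion transport were tested and 3 were called lower. *CLCN3*, an endosomal chloride-proton exchanger, had 105.8 and 114.2 CPM in WT cells and 78.3 and 79.5 in *Helz*-null cells (log2FC -0.48, SE 0.038). *TRAPPC11*, a subunit of the TRAPP tethering complex, had 50.3 and 52.7 CPM in WT cells and 35.6 and 36.98 in *Helz*-null cells (log2FC -0.50), and *TMEM144*, a membrane protein, had a log2FC of -0.54. These genes stood close to the median of the list. *CPE*, the carboxypeptidase that trims prohormones in secretory granules, had 81.9 and 84.6 CPM in WT cells and 74.8 and 79.4 in *Helz*-null cells and was not called (log2FC -0.11, SE 0.039).

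Of 5 signalling and 4 neuronal genes, 2 and 1 were tested. *FNIP2*, a folliculin partner in nutrient signalling, had 32.8 and 35.7 CPM in WT cells and 31.1 and 32.7 in *Helz*-null cells and was not called (log2FC -0.09, SE 0.057). The highest *Helz*-null value of *FNIP2* was just below the lowest WT value, and its log2FC was the smallest in size of the tested list. *RAPGEF2*, a Rap1 exchange factor, had 36.3 and 35.5 CPM in WT cells and 29.4 and 29.3 in *Helz*-null cells (log2FC -0.29). *GLRB*, the beta subunit of the glycine receptor, had 7.63 and 6.42 CPM in WT cells and 5.88 and 5.80 in *Helz*-null cells and was not called (log2FC -0.28, SE 0.12).

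The 13 genes that were not tested were absent from the genes retained by the authors' filter, which scales counts by gene length. They ranged from 0 counts to levels above that of the tested *IRF2* (*WDR17* and *GPM6A*), and they are given as raw counts in WT replicates 1 and 2 and then in *Helz*-null replicates 1 and 2. The AMPA receptor subunit *GRIA2*, the relaxin receptor *RXFP1*, *DDX60L* and *ZFP42* had 0 counts in all 4 libraries, where 3 counts correspond to between 0.043 and 0.073 CPM. The label of lowered expression therefore could not be examined for these 4 genes. The phosphodiesterase *ENPP6* had 2, 1, 0 and 0 counts, which is below the floor in every library. *SORBS2*, a sorbin adaptor, had 13, 4, 10 and 12 counts and overlapped between groups. *GPM6A*, a neuronal membrane glycoprotein, had 427, 308, 272 and 479 counts, that is 6.80 and 7.51 CPM in WT cells and 6.58 and 6.87 in *Helz*-null cells, which overlapped. *VEGFC*, a lymphatic growth factor, had 184, 134, 91 and 171 counts, and *HAND2*, which shares 867 exonic bases with its antisense RNA, had 198, 91, 91 and 136 counts. *VEGFC* had 2.93 and 3.27 CPM in WT cells and 2.20 and 2.45 in *Helz*-null cells. *WDR17*, a WD-repeat gene, had 864, 594, 410 and 602 counts, and *HPGD*, the prostaglandin dehydrogenase, had 257, 166, 115 and 147 counts. Among the untested genes with counts in every library, the largest falls relative to the WT level were those of a protease and an innate immune sensor. *TLL1*, a procollagen-processing metalloprotease, had 129, 105, 29 and 51 counts, or 2.05 and 2.56 CPM in WT cells and 0.70 and 0.73 in *Helz*-null cells. *TLR3*, the endosomal sensor of double-stranded RNA, had 41, 29, 4 and 20 counts, or 0.65 and 0.71 CPM in WT cells and 0.097 and 0.29 in *Helz*-null cells.

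When all genes kept by edgeR's filterByExpr were fitted (16087 genes, 11.5% called lower), 8 of the 13 untested genes gained a value and 4 of these were called lower, namely *TLL1* (log2FC -1.67), *TLR3* (-1.67), *HPGD* (-0.77) and *WDR17* (-0.62). *HAND2* (-0.41), *VEGFC* (-0.40), *GPM6A* (-0.08) and *SORBS2* (0.30) were not called. *SORBS2* was the only listed gene with a positive value in that fit. *TLR3* passed the filter only through its WT libraries, where it was higher, so its call describes what the filter kept.

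Departures from the common shift were defined as a log2FC that differed from the median of the tested listed genes by over 0.25 and by over 2 SE. By this rule 26 of the 34 genes lay within the shift, 4 were less lowered and 4 were more lowered. The less lowered genes were *FNIP2* (93.8% of WT), *CPE* (92.9%), *ETFDH* (88.3%) and *AGA* (86.1%). The more lowered genes were *NAF1* (53.8% of WT), *CYP4V2* (56.4%), *NEK1* (59.0%) and *AADAT* (59.2%). Values just inside the limits were those of *CBR4*, *FAT1* and *PPID* on the less lowered side, 0.23, 0.23 and 0.22 above the median, and that of *MFAP3L* on the other, at 0.24 below it. Some single genes depended on a library: the log2FC of *FNIP2* was -0.16 without WT replicate 1, -0.03 without WT replicate 2 and -0.06 without *Helz*-null replicate 1. That of *CPE* was -0.07 without *Helz*-null replicate 1. That of *MFAP3L* was -0.84 without WT replicate 1 and -0.62 without WT replicate 2, so its place inside the limit depended on the libraries used. Without WT replicate 1, that of *AGA* was -0.11 and that of *GLRB* was -0.14, and without WT replicate 2 that of *AGA* was -0.30 and it was called lower.

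**Figure D2:**
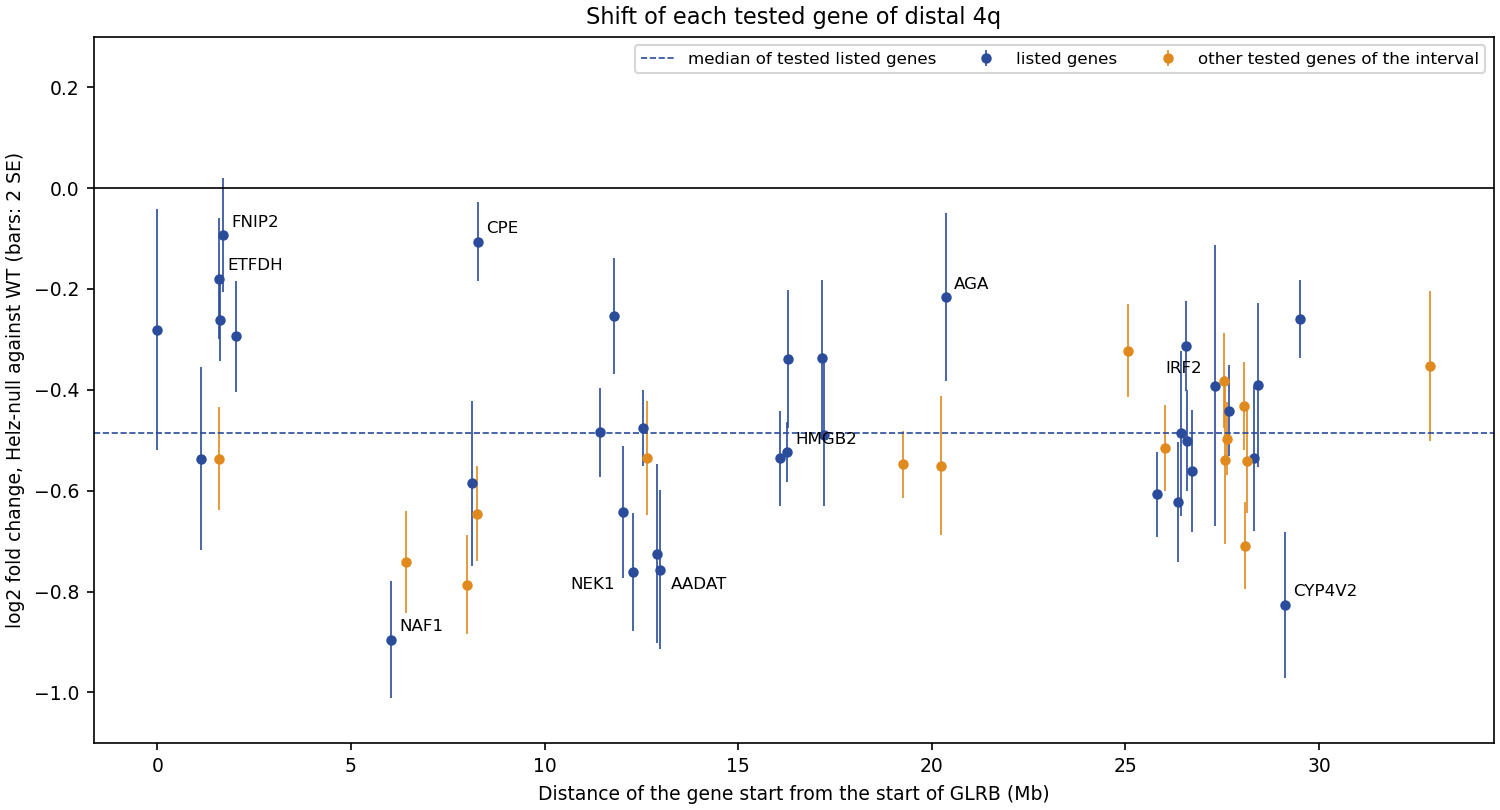
log2 fold change of *Helz*-null against WT (bars: 2 SE) for 50 tested genes against the distance of the gene start from that of *GLRB* in Mb, with listed genes in blue and other tested genes of the interval in orange. All 50 points lie below 0. *FNIP2* and *CPE* sit nearest to 0 and *NAF1* and *CYP4V2* lie lowest.

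To set the extremes of the 34 tested genes side by side, the promoters of *CYP4V2*, the most lowered of them after *NAF1*, and of the least lowered of them, *FNIP2* and *CPE*, are shown from RefSeq on GRCh38.p14, from 250 bases before to 50 bases after the start that lies farthest upstream, 5′ to 3′ on the strand of the gene. All 3 genes are on the plus strand. Capitals mark the GC box GGGCGG or its complement CCGCCC. *NAF1*, *ETFDH*, *HMGB2* and *IRF2* were not matched.
*CYP4V2* (chr4:186191317-186191616): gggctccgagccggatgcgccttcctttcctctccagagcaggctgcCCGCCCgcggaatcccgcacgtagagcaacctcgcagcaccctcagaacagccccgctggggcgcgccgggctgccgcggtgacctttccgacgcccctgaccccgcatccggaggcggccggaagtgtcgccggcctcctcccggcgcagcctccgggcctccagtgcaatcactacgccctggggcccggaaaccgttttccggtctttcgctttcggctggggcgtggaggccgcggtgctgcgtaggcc
*FNIP2* (chr4:158768776-158769075): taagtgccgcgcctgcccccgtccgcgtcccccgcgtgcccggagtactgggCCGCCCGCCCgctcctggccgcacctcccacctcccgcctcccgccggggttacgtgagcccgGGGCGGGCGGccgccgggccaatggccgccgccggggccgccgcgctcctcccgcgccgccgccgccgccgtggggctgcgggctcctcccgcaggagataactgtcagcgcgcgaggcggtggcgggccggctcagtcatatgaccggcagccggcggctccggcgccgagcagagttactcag
*CPE* (chr4:165378758-165379057): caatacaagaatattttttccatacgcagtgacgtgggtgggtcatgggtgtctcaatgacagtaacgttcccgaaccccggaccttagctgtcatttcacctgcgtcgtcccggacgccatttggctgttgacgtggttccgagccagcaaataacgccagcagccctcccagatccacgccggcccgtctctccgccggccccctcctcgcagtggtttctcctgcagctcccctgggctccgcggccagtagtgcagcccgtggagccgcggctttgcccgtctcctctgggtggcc
*CYP4V2* had 1 GC box match, *FNIP2* had 4 and *CPE* had 0, so *FNIP2* and *CPE*, both less lowered, differed in these letters. GC content was 72.0% for *CYP4V2*, 79.3% for *FNIP2* and 62.0% for *CPE*. Over the 30 tested listed genes with a promoter, the GC box was present in 76.7%, against 72.6% of the promoters of all tested genes. The CCAAT box CCAAT was present in 30% against 38%, and the TATA box TATAAA in 3.33% against 4.91%, each searched on both strands with overlaps allowed. The median GC content was 69.5% against 65.7%.

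The shifts of the head-to-head pairs shown above were compared within each pair. *NEK1* and *CLCN3* had log2FC of -0.76 and -0.48, a difference of 0.29 (SE 0.070). *RWDD4* and *TRAPPC11* differed by 0.19 (SE 0.067) whereas *FBXO8* and *CEP44* differed by 0.15 (SE 0.105). The SE of a difference combines the SEs of both genes as if independent, although both were measured in the same libraries. It is given as a description and carries no test. Among these 3 pairs of listed genes, the first had the largest difference, also relative to its SE. Among pairs with a gene outside the list, *C4orf46* and *ETFDH*, whose starts overlap by 288 bases, had log2FC of -0.54 and -0.18, a larger difference of 0.36 (SE 0.079). *TMEM192* and *KLHL2* had -0.79 and -0.59.

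The shift was not confined to listed genes. The interval from the start of *GLRB* (chromosome 4, position 157997277 in GRCh37) to the end of the chromosome held 127 genes of the table, 80 of them not listed. Of these 80, 16 were tested and 16 were called lower, against 15.5% of all tested genes, with a median log2FC of -0.54 and a range from -0.79 to -0.32. They included *C4orf46* (-0.54), *TMA16* (-0.74), *TMEM192* (-0.79), *MSMO1* (-0.65), *C4orf27* (-0.54), *SPCS3* (-0.55), *NEIL3* (-0.55), *TENM3* (-0.32), *WWC2* (-0.51), *PRIMPOL* (-0.54), *CENPU* (-0.50), *SLC25A4* (-0.43), *CFAP97* (-0.71), *SNX25* (-0.54) and *FRG1* (-0.35). Among them are the mitochondrial ADP/ATP carrier *SLC25A4*, the sterol enzyme *MSMO1* and the signal peptidase subunit *SPCS3*. By the rule above *TMA16* and *TMEM192* lay below the shift of the listed genes and none lay above it. *FRG1*, the tested gene nearest to the end of the arm, had 24.97 and 24.5 CPM in WT cells and 21.8 and 17.5 in *Helz*-null cells, and without *Helz*-null replicate 2 its log2FC was -0.19 and it was not called. In all, 50 of 50 tested genes of the interval had a negative log2FC (median -0.51), against 50.25% of all tested genes. This count includes the 34 tested listed genes, which were selected on this contrast. The interval was also set to begin at the first listed gene, so the count is a description.

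A further 20 genes of the interval had a value only in the filterByExpr fit, where 18 were below 0, 8 were called lower and 0 higher, against 11.5% of all genes of that fit called lower. The 8 include *C4orf47*, which was kept through its WT libraries alone. Among those not called, *FAM198B*, *HAND2-AS1*, *WWC2-AS2* and *FRG2* reached the filter level in both WT libraries but not in both *Helz*-null libraries. The number below 0 thus partly describes what the filter kept. The neuropeptide Y receptor genes *NPY1R* and *NPY5R* were among the 8 called lower. *NPY1R* had 4.13 and 3.03 CPM in WT cells and 0.75 and 0.72 in *Helz*-null cells (log2FC -2.31). *NPY5R* had 1.45 and 1.54 CPM in WT cells and 0.24 and 0.24 in *Helz*-null cells (log2FC -2.61). As log2FC, the differences of both were larger than that of any tested listed gene. *SPOCK3* (-1.23), *MARCH1* (-0.99), *LRP2BP* (-0.81), *CLDN22* (-0.80) and *DDX60* (-0.76) were also called. The remaining call, *C4orf47*, had 26, 10, 4 and 0 counts, and nothing is read from it. *GALNTL6*, with 2.68 and 3.10 CPM in WT cells and 2.93 and 2.998 in *Helz*-null cells (log2FC 0.05), and the locus *FLJ38576* (0.21) were the exceptions above 0. These genes without listed status were chosen after their values were seen, by the call or by sign. The remaining unlisted genes include 25 with 0 counts in every library.

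At the centromere-side edge, the last 3 tested genes outside the interval were *MAP9* (log2FC -0.34, SE 0.052), *GUCY1B3* (-0.11, SE 0.066) and *PDGFC* (-0.15, SE 0.077). The first 3 inside were *GLRB* (-0.28, SE 0.12), *TMEM144* (-0.54, SE 0.091) and *C4orf46* (-0.54, SE 0.051). The values of *MAP9* outside and *GLRB* inside differed by less than the SE of *GLRB*. *MAP9* was called lower (edgeR FDR 7.65e-07), whereas *GUCY1B3* and *PDGFC* were not called (edgeR FDR 0.16 and 0.12). The log2FC of *PDGFC* was -0.22 without WT replicate 1 and -0.08 without WT replicate 2. The rest of chromosome 4 had 331 tested genes with a median log2FC of -0.04, of which 192 were below 0, 60 were called lower and 27 higher. Over all tested genes, 50.25% were below 0, 15.5% were called lower and 13.9% higher. Beside these shares the rest of chromosome 4 also leaned lower. In blocks of 10 Mb, the medians stayed between -0.06 and 0.12 over the blocks from the short-arm end to 120 Mb. They were -0.12 from 120 to 130 Mb, -0.39 from 130 to 140 Mb (6 genes), -0.13 from 140 to 150 Mb and -0.18 from 150 to 160 Mb. The block from 150 to 160 Mb spans the edge, so its median mixes genes outside and inside the interval. Medians were -0.59, -0.54 and -0.50 in the blocks beginning at 160, 170 and 180 Mb. Listed genes before *NAF1* (6 tested) had a median of -0.27 and 3 were called lower, whereas those from *NAF1* onwards (28 tested) had a median of -0.49 and 25 were called lower. This division was chosen after the values were seen.

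Within the list, the size of the shift had little relation to other properties of the genes. Over the 34 tested genes, Pearson's r (and Spearman's rho) of log2FC was 0.11 (0.18) with mean CPM, -0.11 (-0.13) with the width used for counting, 0.07 (0.06) with genomic span and -0.21 (-0.17) with distance from *GLRB*. These are descriptions across genes, which share the 4 libraries and are not independent replicates. The 17 tested genes on the plus strand had a median log2FC of -0.49 and the 17 on the minus strand -0.44.

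Many listed genes encode parts of complexes or families whose other members lie elsewhere in the genome. Lists of such partners held 80 genes, of which 68 were tested. Of these, 6 were called lower and 13 higher, against 15.5% and 13.9% of all tested genes, and the median log2FC was 0.02. Partners thus fell on both sides of 0.

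**Figure D3:**
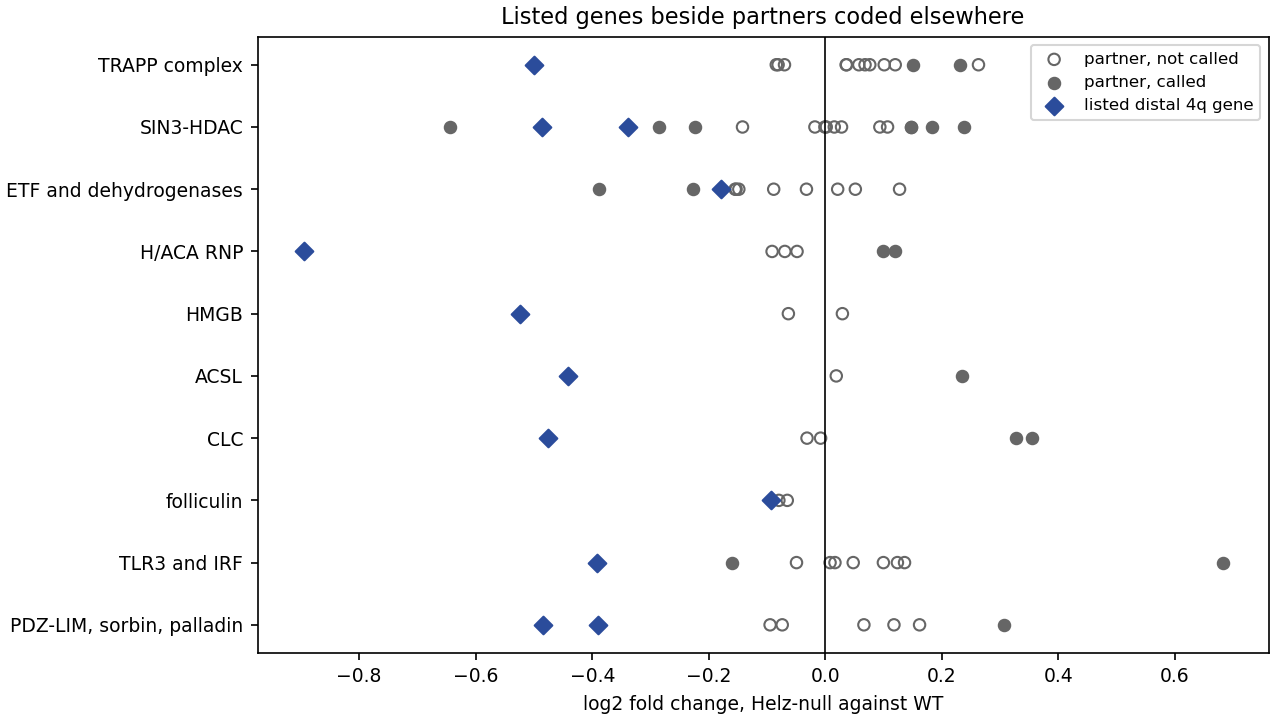
log2 fold change of *Helz*-null against WT for partners (circles, filled where called at an FDR under 0.005) and tested listed genes (blue diamonds), 1 row per complex or family. The diamonds lie left of 0 in each row, while the partners fall on both sides, from -0.64 (*ARID4B*) to 0.68 (*IKBKE*).

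Of 13 partners of *TRAPPC11* in the TRAPP complex, 0 were lower and 2 were higher, *TRAPPC8* (log2FC 0.23, edgeR FDR 1.34e-06) and *TRAPPC1* (0.15, FDR 0.00067). Of 15 tested SIN3-HDAC partners of *SAP30* and *ING2*, 3 were lower and 4 higher. *ARID4B*, a subunit that recruits the complex, fell from 70.7 and 71.7 CPM to 45.8 and 45.3 CPM (log2FC -0.64, edgeR FDR 1.54e-15), and the deacetylase gene *HDAC2* (-0.29) and the scaffold gene *SIN3A* (-0.22) fell as well. *ARID4B* lies on chromosome 1, *HDAC2* on chromosome 6 and *SIN3A* on chromosome 15. *SAP130* (0.24), *SAP30L* (0.18), *SAP18* (0.15) and the histone chaperone gene *RBBP4* (0.15) rose. The call of *SAP18* was lost with DESeq2 and without WT replicate 2 (log2FC 0.10) or either *Helz*-null replicate (0.15 in both fits). That of *SAP30L* was lost with DESeq2, with filterByExpr or all genes with at least 1 count (0.18 in both), and without WT replicate 1 (0.14), *Helz*-null replicate 1 (0.17) or *Helz*-null replicate 2 (0.20). *RBBP4* was not called without *Helz*-null replicate 1 (0.13), and *TRAPPC1* was not called without *Helz*-null replicate 2 (0.13).

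Of 10 tested flavoprotein partners of *ETFDH*, *ETFA*, which hands it electrons, was lower, with 210.7 and 208.4 CPM in WT cells and 159.1 and 161.2 in *Helz*-null cells (log2FC -0.39, edgeR FDR 1.41e-13), and so was the isovaleryl-CoA dehydrogenase gene *IVD* (-0.23, FDR 3.89e-06). Both lie on chromosome 15. Of 5 H/ACA RNP partners of *NAF1*, *DKC1* (0.12, edgeR FDR 0.001) and *NHP2* (0.10, FDR 0.0043) were higher and 0 were lower. The *NHP2* call was lost with filterByExpr, with all genes with at least 1 count, and without WT replicate 1, *Helz*-null replicate 1 or *Helz*-null replicate 2 (log2FC 0.10 in each fit), and the *DKC1* call without *Helz*-null replicate 2 (0.09). The paralogs of *HMGB2*, *HMGB1* and *HMGB3*, had log2FC of 0.03 and -0.06 and were not called. The acyl-CoA synthetase gene *ACSL4* (0.23) and the CLC genes *CLCN6* (0.35) and *CLCN7* (0.33) were higher, in contrast to the lower values of their paralogs *ACSL1* and *CLCN3*. *CLCN6* was not called without WT replicate 1 (0.28).

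The folliculin partners of *FNIP2* were not called. Among 9 tested partners of *TLR3* and *IRF2*, the kinase gene *IKBKE* was higher, with 8.28 and 7.12 CPM in WT cells and 12.3 and 12.6 in *Helz*-null cells (log2FC 0.68, edgeR FDR 2.72e-07), and the adaptor gene *TRAF3* was lower (-0.16, FDR 0.00064). The *TRAF3* call was lost with DESeq2, with library size only (log2FC -0.13), and without WT replicate 1 or *Helz*-null replicate 2 (log2FC -0.14 in both). Of 6 tested PDZ-LIM, sorbin and palladin paralogs, *PDLIM2* was higher (0.31, edgeR FDR 0.0013) and 0 were lower. The *PDLIM2* call was lost with DESeq2 and without WT replicate 1 (0.23) or *Helz*-null replicate 2 (0.26).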

How the data were processed

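RNA-Seq libraries of HEK293T WT and *Helz*-null cells (2 each) were prepared from total RNA and sequenced in paired-end mode. Alignment to hg19 was done with TopHat2, after a Bowtie2 step that discarded rRNA. The authors deposited raw counts per gene, not normalized. The annotation, tool versions, use of strand and treatment of mates are not given in the sources used here. The deposited comparison table holds the authors' log2 fold changes, CPM, p-values and FDR values, of which only the gene names were used, to define the 10978 tested genes.

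Counts were fitted with edgeR 4.0.16 in R 4.3.3 (TMM, glmQLFit, glmQLFTest, genotype as the only term), with calls at an FDR under 0.005 after Benjamini-Hochberg adjustment over all tested genes. CPM are TMM-normalized, and log2FC are *Helz*-null over WT. DESeq2 1.42.0, other scalings, other gene filters, a replicate block and omission of each library were alternatives. Depth per library was between 41745401 and 70464140 counts, and floors cover counting error only. These totals exceed the mapped read numbers in the study's methods, so both mates of a pair may have been counted, in which case 3 counts stand for fewer than 3 fragments. The p-values measure the spread between these libraries, with the spread of each gene drawn strongly towards that of all genes (37.2 prior degrees of freedom). SEs were derived as the absolute log2FC over the square root of the F statistic. They carry the same pooling and are not the spread of a gene's own libraries alone. The fit was tested on simulated data.

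Gene positions came from GENCODE on GRCh37 and promoters from RefSeq on GRCh38.p14 (43 of 47 listed genes matched). The listed genes, partner lists, markers and naming rules were chosen with earlier results of these data known. Every listed gene was named, with values per library for the 5 lowest, 5 highest and 5 most abundant tested genes, the untested genes and at least 1 gene of each role.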

Additional observations from a re-analysis of the deposited data

How the results depend on the processing

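No tested listed gene changed the sign of its log2FC under any alternative. The number called lower was 28 with DESeq2, with relative log expression scaling and with library size only, and 32 with filterByExpr or with all genes that had at least 1 count. It lay between 26 and 29 when 1 library was left out, and the median log2FC of the tested genes lay between -0.4827 and -0.4615. The median was -0.4521 with library size only. That scaling also changed the direction of calls over all genes, with 1318 lower and 2109 higher (38.5% lower), against 1701 and 1524 (52.7% lower). Other interval genes called lower numbered 15 to 16 without a library. Partner genes called numbered 12 to 19 without a library, 12 without *Helz*-null replicate 2 against 19 with all libraries. The cause was not tested.

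Replicate numbers of the groups share only a number. Deviations of same-numbered libraries from their group means correlated at 0.0319 over 10921 genes. With a replicate block, 3518 genes were called in all against 3225 without it, 28 listed genes were called lower, and the median of the tested listed genes was -0.4862. With 2 libraries per group, fits without 1 library assume that the lone sample varies like the other group, and genes of a few counts, such as *TLR3* and *SORBS2*, are limited by depth.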
